A study of Homo sapiens with 23 samples.

Results

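A pair of lines of the same squamous carcinoma, both labelled wild type for the gene that the series edits, were compared as xenograft tumours: 4 tumours of WT line 6C10 against 4 tumours of WT line 5B2. These 8 tumours were taken by their titles from the 23 of the series. The cells were SCC-13, an established human cutaneous squamous carcinoma line, and both lines carried the genotype label hFWE WT, that is, intact human Flower (CACFD1). Cells were injected in Matrigel under the dorsal flank skin of NCG mice, which lack functional lymphocytes, and tumours were taken on day 26. The other 15 tumours were those of WT line 6C9 and of the knockout lines 2F7, 2B8 and 1G10. The lines are known by code only, so it is not known here whether each is a single clone or how 6C10 and 5B2 differ in origin. Nor do the labels tie tumours to animals, and p-values therefore rest on the spread between tumours, which may be technical in part. All tumours received the same treatment, so the comparison concerns how much the lines differ apart from the knockout.

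Keratinocytes of the skin divide in the basal layer, where KRT5, KRT14 and integrins mark them, and then move outward while they switch to KRT1, KRT10, filaggrin and the proteins of the cornified envelope. Squamous carcinomas keep this programme to a varying degree, so that a tumour holds basal-like and cornifying cells side by side. In bulk RNA, fewer cells of a type and less RNA per cell cannot be told apart, and RNA of the mouse host can add to human genes wherever the sequence is conserved.

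Keratins of both layers were abundant in every tumour. KRT14 ranged over 243165 to 258365 normalized reads in the 6C10 tumours and 202703 to 363166 in the 5B2 tumours, and KRT10 over 167203 to 198849 in 6C10 and 95624 to 267276 in 5B2. Estimated assigned reads lay between 13082603 and 16266153 in the 6C10 libraries and between 14378049 and 22092275 in the 5B2 libraries. CACFD1 was present in all 8, with 331, 370.4, 414 and 422 normalized reads in 6C10 and 395, 432, 432 and 353 in 5B2. The lines overlapped, at 384.2 ± 42.2 in 6C10 and 403.1 ± 37.4 in 5B2 (SD, n = 4 each), a log2 difference of -0.07 with a standard error of 0.11. A two-sided exact permutation test over tumours gave p = 0.54, where the smallest p this design allows is 0.0286.

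Gene by gene, few differences passed the test with the lines as the only term. Of 15869 genes tested with limma on log2(value + 1), 4 passed a Benjamini-Hochberg adjusted p of 0.05, which is 0.0252% of those tested. All 4 were lower in 6C10 and none was higher (0%). All 4 are annotated copies of a single RNA, 5.8S ribosomal RNA, a part of the large ribosomal subunit that pairs with 28S rRNA. It is cut from the precursor that RNA polymerase I makes on the short arms of the acrocentric chromosomes and carries no poly(A) tail, so a library selected for poly(A) RNA holds only what the selection left. The 4 copies are RNA5-8SN1, RNA5-8SN2, RNA5-8SN3 and a copy named 5_8S_rRNA, all on the plus strand of chromosome 21 in hg38. RNA5-8SN2 lies at chr21:8212572-8212724, 5_8S_rRNA at chr21:8256781-8256933, RNA5-8SN3 at chr21:8395607-8395759 and RNA5-8SN1 at chr21:8439823-8439975. Their sequence in GENCODE is shown because the copies have to be read as 1 measurement: the 153 bases are identical in all 4, so no base is in capitals.
5.8S rRNA, all 4 copies: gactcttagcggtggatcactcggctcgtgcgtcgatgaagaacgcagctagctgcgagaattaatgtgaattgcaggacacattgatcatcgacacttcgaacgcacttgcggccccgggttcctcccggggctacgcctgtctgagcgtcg
Of these bases 57.5% are G or C, and the longest run of A is 2 bases.

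RNA5-8SN3 had 131, 105, 85.6 and 70.7 normalized reads in the 6C10 tumours, against 819, 332, 357 and 483 in the 5B2 tumours. Every 6C10 tumour was below every 5B2 tumour, with 5B2 5526 highest. The log2 difference was -2.27 with a standard error of 0.28 (limma adjusted p = 0.0363), and 5_8S_rRNA had the same values. RNA5-8SN1 had 86.1, 84.3, 85.6 and 51.7 in 6C10 and 612, 302, 243 and 311 in 5B2, with a log2 difference of -2.18 and a standard error of 0.27 (limma adjusted p = 0.0363). RNA5-8SN2 differed by -2.15 with a standard error of 0.27 (limma adjusted p = 0.0363). Both of these copies were again separate between the lines.

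The call was not firm. The 4 copies entered the adjustment as 4 genes, although they are read here as 1 measurement. They shared 1 adjusted p by limma, 0.0363, and that value depends on counting all 4. The smallest unadjusted p of a copy by limma was 5.8e-06, over 15869 genes tested. An adjustment with the copies counted as 1 gene was not run. The smallest p of a copy, ranked alone over nearly as many genes, would not pass the threshold used here. The lowest adjusted p by limma outside the copies was 0.179, so no gene would then be called. When tumour 5527 or 5529 of 5B2, or any tumour of 6C10 (5534, 5535, 5536 or 5537), was left out, no gene passed, and the adjusted p of RNA5-8SN3 over all 8 omissions ran from 0.0167 to 0.146. Its log2 difference stayed between -2.434 and -2.001 over the same omissions. Among the other lines this RNA varied widely within KO 2F7, with 39.1 normalized reads in 5538 against 3383 in 5540. WT 6C9 5532 had 107 and WT 6C9 5533 had 3239, but both libraries are shallow, at 7010962 and 2037744 estimated reads. WT 6C9 5530 and 5531 had 290 and 222. The separation of 6C10 from 5B2 therefore lay inside the range that the tumours of KO 2F7 showed. The signal recognition particle RNAs RN7SL1 and RN7SL2, named after their values were seen, overlapped between the lines. RN7SL1 had 997, 597, 508 and 452 in 6C10 and 1271, 493, 439 and 308 in 5B2, and its adjusted p by limma was 0.87.

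**Figure D1:**
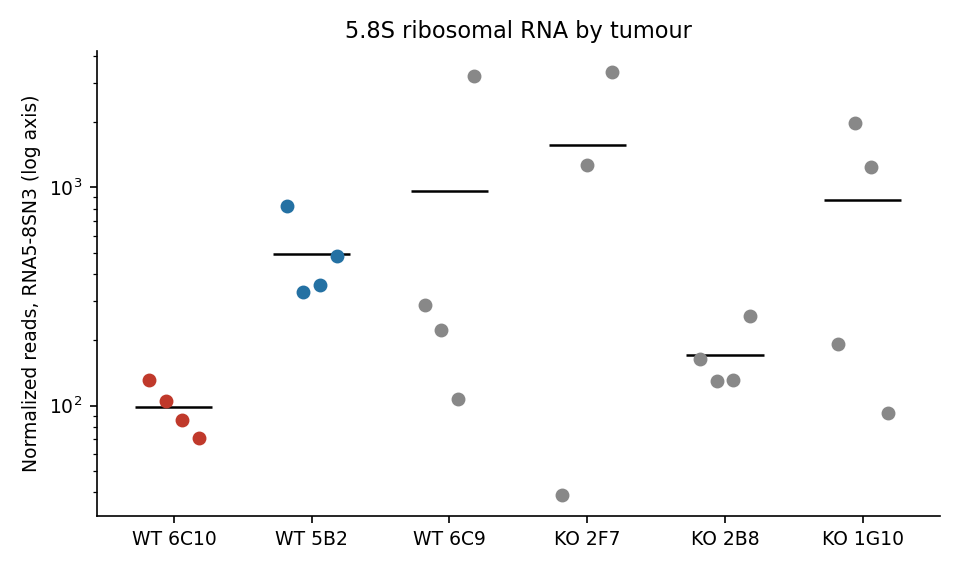
Normalized reads of RNA5-8SN3 (log axis) in each of the 23 tumours by line, 1 point per tumour, with a bar at the line mean. The 4 tumours of 6C10 sit between 70.7 and 131, below the 4 of 5B2 at 332 to 819, while tumours of KO 2F7 spread from 39.1 to 3383.

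In this fit no gene outside the 5.8S copies was called, and counts without adjustment depended on the tumours and on the fit. Without adjustment, 2101 genes (13.2% of those tested) had p under 0.05 by limma, 932 higher (5.87%) and 1169 lower (7.37%) in 6C10. Leaving out 1 tumour moved that count to between 1137 genes (478 higher, 659 lower) without 6C10 5535 and 2866 without 5B2 5526. A limma fit of all 23 tumours gave 565 of 16063 genes (3.52%). The genes share the same libraries, so such counts do not show that single genes differ between the lines. With the fibroblast and matrix score of each tumour as a covariate, 143 genes passed adjustment, 74 higher and 69 lower. The lowest adjusted p outside the 5.8S copies was 0.179. The 4 tumours of each line did not overlap for 1109 genes (6.99%), of which 514 (3.24%) were higher and 595 (3.75%) lower in 6C10. The size of these differences was small: 35 of the 936 protein-coding ones reached 2-fold, 18 higher and 17 lower. On simulated data drawn for this comparison, the same test recovered 78 of 100 2-fold changes and 96 of 100 4-fold changes with 6 false calls among 15669 unchanged genes. In the tumours, 319 tested genes (2.01%) differed by 2-fold or more, 210 higher and 109 lower, at a median level of 21.9 normalized reads. Of these, 46 had a mean of at least 100, and only the 5.8S copies passed. The simulated rates are therefore not a measure of what the test would recover in these tumours. Rescaling every library to the same total moved the median of all genes from 0.01 to 0.08 on the log2 scale, and the genes with p under 0.05 then split into 1898 higher and 586 lower. Directions below are as deposited, relative to a median of 0.01.

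The protein-coding genes with a symbol that were nearest to a call, chosen after their values were seen, are given as values. Genes that are not protein-coding or lack a symbol were left out. Some of those left out were as near to a call as genes given here. GLUL, glutamine synthetase, had 982, 1240.0, 1203 and 967 normalized reads in 6C10 and 593, 757, 735 and 646 in 5B2. All 6C10 tumours were above all 5B2 tumours, by 0.68 on the log2 scale with a standard error of 0.11 (limma adjusted p = 0.179). FHL1, a LIM-domain protein best known from muscle, had 218, 191, 282 and 192 in 6C10 and 109.8, 100.5, 126 and 134 in 5B2, a log2 difference of 0.89 with a standard error of 0.15 (limma adjusted p = 0.179). LRP6, a Wnt co-receptor, had 369, 406, 382 and 472 in 6C10 and 321, 297, 245 and 280.4 in 5B2. SMAD5, which carries signals of bone morphogenetic proteins, had 1025, 1077, 923 and 996 in 6C10 and 822, 793, 793 and 739 in 5B2. The lines did not overlap for either, at log2 differences of 0.51 and 0.35 (limma adjusted p = 0.292 for both). The other genes among the 10 of smallest p on this side were PSD3, PPIP5K2, TRAK2, HMCN1, THAP1 and DPY19L4, at log2 differences of 0.42 to 1.19.

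On the other side stood PIM3, a serine/threonine kinase that favours survival. It had 649, 597, 697 and 645 normalized reads in 6C10 against 891, 900.0, 867 and 891 in 5B2. The 5B2 tumours were close together and all above 6C10, a log2 difference of -0.46 with a standard error of 0.08 (limma adjusted p = 0.179). INPP5J, an inositol phosphatase, had 56.5, 58, 52.7 and 54.4 in 6C10 and 94.6, 91.9, 94.5 and 97 in 5B2, a log2 difference of -0.76 (limma adjusted p = 0.179). RDH13, a mitochondrial retinol dehydrogenase, had 297, 310.0, 341 and 322 in 6C10 and 491, 423, 597 and 479 in 5B2, a log2 difference of -0.64 (limma adjusted p = 0.179). TRPM4, a calcium-activated cation channel, had 503, 454, 486 and 542 in 6C10 and 674, 648, 704 and 792 in 5B2, a log2 difference of -0.50 (limma adjusted p = 0.217). In all 4 genes the lines were separate. DCAF15, PLA2G4F, SLCO4A1, SPSB3, UNC13D and AP5Z1 completed the 10 of smallest p, at log2 differences of -0.76 to -0.49.

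These sets of 10 differed in base composition, a property that the choice by p did not use. Of the transcript bases of the 10 genes nearest to being higher in 6C10, 35.6% to 44.7% were G or C, against 57.1% to 67.1% for the 10 nearest to being lower, so the ranges did not meet. A 90-base stretch from the middle of the coding sequence of a pair on each side is shown to make the contrast visible, from GENCODE transcripts on GRCh38, with G and C in capitals.
SMAD5, higher in 6C10, chr5:136161105-136163358, plus strand: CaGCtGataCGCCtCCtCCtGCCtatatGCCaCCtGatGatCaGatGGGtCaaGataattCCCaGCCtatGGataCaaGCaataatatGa
PPIP5K2, higher in 6C10, chr5:103159280-103167219, plus strand: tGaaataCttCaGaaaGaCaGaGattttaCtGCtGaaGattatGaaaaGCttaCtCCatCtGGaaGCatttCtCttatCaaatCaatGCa
PIM3, lower in 6C10, chr22:49961639-49961728, plus strand: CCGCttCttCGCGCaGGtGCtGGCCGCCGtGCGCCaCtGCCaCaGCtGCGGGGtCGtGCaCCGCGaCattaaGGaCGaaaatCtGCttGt
SPSB3, lower in 6C10, chr16:1777964-1778138, minus strand: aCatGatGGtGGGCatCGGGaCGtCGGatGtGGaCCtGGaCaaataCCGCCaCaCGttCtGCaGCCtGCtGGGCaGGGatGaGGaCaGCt
The stretches of SMAD5, PPIP5K2 and SPSB3 span an intron in the genome. G and C made up 45.6% and 33.3% of the stretches of the first pair and 64.4% and 60% of those of the second. In the whole transcripts G and C made up 36.9% and 37.2% in SMAD5 and PPIP5K2, against a median of 41.0% for their set of 10. PIM3 and SPSB3 had 67.1% and 66.9%, against a median of 63.0%. Both pairs thus lie toward the ends of their sets.

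The relation with base composition ran across the transcriptome. Over the 12791 protein-coding genes with a transcript sequence, Spearman's rho between G and C content and the log2 difference was -0.49, a description across genes that share the same 8 libraries. Over 5 equal classes of genes ordered from low to high G and C, the median log2 difference was 0.13, 0.08, 0.01, -0.08 and -0.17. In the lowest class 234 genes were separate and higher in 6C10 and 7 were separate and lower, while in the highest class 10 were separate and higher and 296 separate and lower. The median G and C content was 40.2% for the 413 separate protein-coding genes higher in 6C10, 59.3% for the 523 lower and 48.7% for all tested protein-coding genes. Transcript length followed the difference less, with a rho of 0.13.

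**Figure D2:**
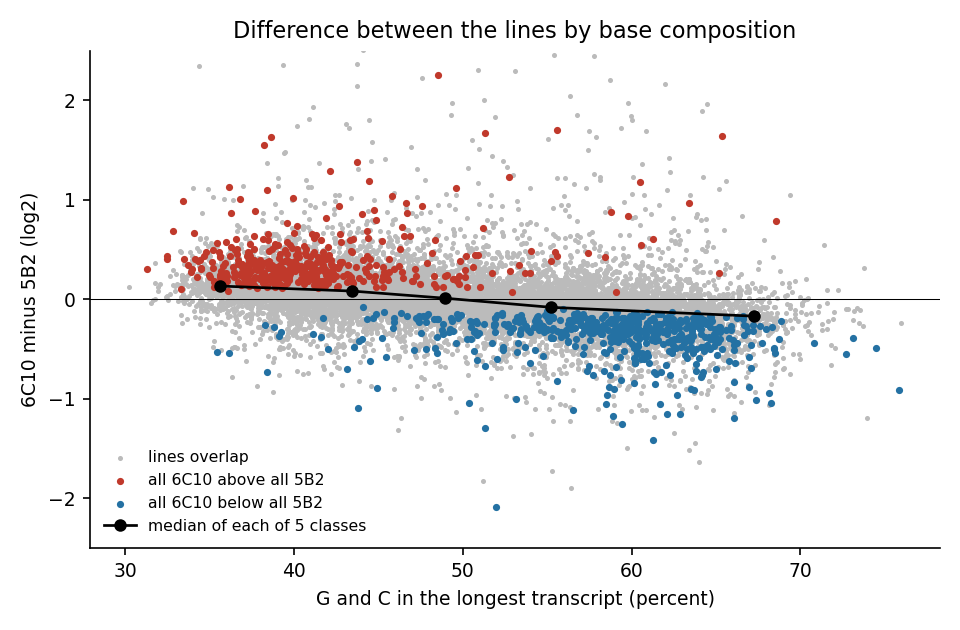
Log2 difference, 6C10 minus 5B2, of each protein-coding gene against the percent of G and C in its longest transcript. Genes whose lines do not overlap are coloured, red where 6C10 is higher and blue where it is lower, and the black line joins the medians of 5 equal classes, 0.13 at the lowest G and C and -0.17 at the highest; points beyond 2.5 on the log2 scale are not drawn.

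Tumour by tumour, the slope was shared within 6C10 and uneven within 5B2. Relative to the mean of the 8 tumours, the median deviation of the lowest class was 0.08, 0.09, 0.05 and 0.05 in the 6C10 tumours, and that of the highest class -0.11, -0.12, -0.05 and -0.06. In 5B2 the lowest class deviated by 0.02, -0.02, -0.09 and -0.16 in tumours 5526, 5527, 5528 and 5529, and the highest class by -0.03, 0.07, 0.10 and 0.22. Tumour 5526 was thus nearly flat and 5529 was steepest. Other lines were uneven as well. In KO 2F7 the lowest class deviated by -0.06, 0.04 and 0.07 and the highest by 0.05, -0.05 and -0.11, so the slope changed direction within that line. In KO 2B8 the highest class ran from 0.0009 to 0.13, and in KO 1G10 from -0.10 to 0.05. The slope is therefore not particular to this pair of lines. Centring each tumour within 10 classes of G and C content, an alternative added after the data were seen, left 1340 genes with p under 0.05 in place of 2101 and no gene past adjustment, with an adjusted p of 0.0876 for RNA5-8SN3. Whether the slope came from the cells or from library preparation was not tested.

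**Figure D3:**
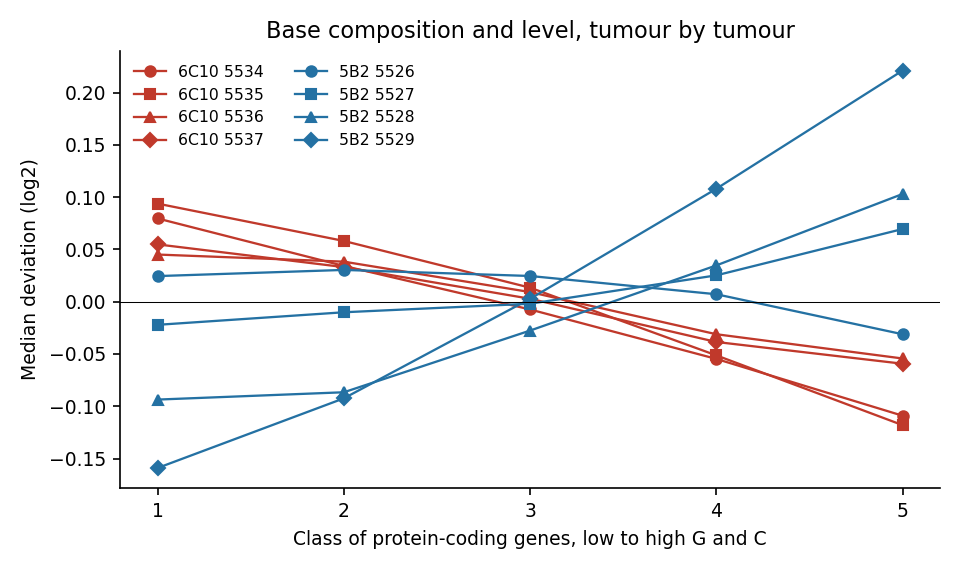
Median log2 deviation from the mean of the 8 tumours for each of 5 classes of protein-coding genes, ordered from low to high G and C, 1 line per tumour (6C10 red, 5B2 blue). The 4 red lines fall together, while the blue lines range from a slight fall in 5526 to a rise of -0.16 to 0.22 in 5529.

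Among genes with a mean of at least 500 whose lines did not overlap, the 6 largest differences on each side were also chosen after the values were seen. KRT4, a keratin of internal stratified epithelia, had 2520.1, 3074, 3994 and 2438 normalized reads in 6C10 and 619, 2372, 1614 and 285 in 5B2. The lowest 6C10 tumour was just above 5B2 5527, and the log2 difference was 1.70 with a standard error of 0.53 (limma adjusted p = 0.293). COL12A1, a collagen that lies along collagen fibrils, had 984, 1349.9, 1100.2 and 1341 in 6C10 and 943, 863, 683 and 866 in 5B2, a log2 difference of 0.51. GLUL, QSER1, LPP and ZNF148 completed the higher side at 0.68, 0.51, 0.46 and 0.44. On the lower side ALS2CL, a guanine nucleotide exchange factor relative, had 2253, 1757, 1998 and 2802 in 6C10 and 3163, 3057, 5101 and 5473 in 5B2. Its lines were separate, with 5B2 5528 and 5529 well above the rest, at a log2 difference of -0.90 and a standard error of 0.21 (limma adjusted p = 0.292). LPIN3, a phosphatidate phosphatase, had 506, 409.6, 509 and 636 in 6C10 and 671, 643, 1402 and 1613 in 5B2, with the same pair of 5B2 tumours high. LRRC14, CCDC9B, SPPL2B and FBXL6 followed at -0.76, -0.72, -0.70 and -0.69.

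No gene of the keratinocyte layers passed the test between the lines. Of the 46 gene lists examined, 41 had 5 or more tested members, and no member of any list was called. Members with separate lines are named below for the 14 lists described. Over all genes, 3.24% were separate and higher and 3.75% separate and lower in 6C10. The 1 or 2 such members in some of the described lists are therefore not read as a result about a list. Among the lists not described, p53 targets and cell cycle inhibitors had the most, 3 of 25 tested members, all higher. This was not tested. The score of a list is the mean log2 value of its members in a tumour. For all but 1 of the 41 lists the scores of the lines overlapped. Leaving out 1 tumour changed the number of separate lists to 3 without 6C10 5534 and 2 without 6C10 5537. It was 4, 3, 2 and 9 without 5B2 5526, 5527, 5528 and 5529. With fewer tumours separation is easier to reach, so such rises are in part built into the omission. For 37 the median log2 difference was within 0.3 of 0, beside 0.01 for all genes. Basal keratinocyte genes (22 tested) scored 12.01, 12.12, 12.05 and 12.32 in 6C10 and 12.05, 12.05, 11.73 and 12.24 in 5B2, with a median difference of 0.09. KRT14 differed by -0.20 and KRT5 by -0.11 on the log2 scale, with standard errors of 0.26 and 0.25. CAV1, the coat protein of caveolae, was the only member with separate lines, 2295, 2562, 2221 and 2819.7 in 6C10 and 2089, 2178, 1451 and 2201 in 5B2 (limma adjusted p = 0.354).

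Late differentiation genes (26 tested) scored 11.65, 11.66, 11.77 and 11.58 in 6C10 and 11.78, 11.87, 11.86 and 10.68 in 5B2, with a median difference of 0.03. KRT4, above, was its only separate member. Without 5B2 5529, the other 3 tumours of 5B2 were above all of 6C10, and with it the order was broken. KRT10 had 95624 normalized reads in 5529 and 187646 to 267276 in the rest of 5B2, and KRT1 had 36835 in 5529 and 80792 to 119700.0 in the rest. KLK6, a secreted protease of differentiating keratinocytes that was named after its values were seen, showed the gap most plainly, with 4526, 5147, 6611 and 4347 in 6C10 and 3205, 4356, 3898 and 487 in 5B2. Its log2 difference of 1.16 had a standard error of 0.57 (limma adjusted p = 0.397).

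Cornified envelope genes (40 tested) scored 10.74 to 11.02 in 6C10 and 10.78 to 10.97 in 5B2 outside 5529, which scored 9.85. FLG, filaggrin, had 105574, 113314, 101647 and 138054 in 6C10 and 139602, 119422, 110221 and 24508 in 5B2. CDSN, corneodesmosin, differed by 0.01 with a standard error of 0.21. LCE2A and LCE3C, late envelope proteins, were the members with separate lines. LCE2A had 367, 319, 398 and 542 in 6C10 and 257, 317, 301 and 89.3 in 5B2, so that its lines came close to meeting. LCE3C had 85.7, 69.2, 71.4 and 75.8 in 6C10 and 51.8, 47.8, 54.8 and 63.4 in 5B2, a log2 difference of 0.47 (limma adjusted p = 0.308).

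Epidermal proteases and their inhibitors (25 tested) scored 9.53 to 9.79 in 6C10 and 9.41 to 9.69 in 5B2 outside 5529, which scored 8.31. CASP14, a caspase of cornification, and SPINK5, an inhibitor of kallikreins, differed by -0.06 and 0.17 on the log2 scale. WFDC12, a small secreted inhibitor, was the separate member, with 169, 146, 151 and 136 in 6C10 and 109.8, 132, 134 and 35.5 in 5B2. Genes of barrier lipids (27 tested) scored 9.32 to 9.37 in 6C10 and 9.41 to 9.59 in 5B2 outside 5529, which scored 8.56. ABCA12, which loads lipids into lamellar granules, differed by 0.42, and SULT2B1, a cholesterol sulfotransferase, by -0.07 (limma adjusted p = 0.426 and 0.816). Wound keratins and alarmins (26 tested) had a median difference of 0.07, with KRT6A at -0.35 and KRT16 at -0.50 (limma adjusted p = 0.5 and 0.379).

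The EGFR family and its ligands, which drive keratinocyte growth and migration, were the 1 list with separate scores. Complete separation of 4 and 4 tumours corresponds to the smallest p of the exact permutation test, 0.0286, and 41 lists were examined. A single separate list is therefore not read as a difference between the lines. Its 16 tested members scored 9.07, 9.18, 9.31 and 9.24 in 6C10 and 9.00, 9.03, 8.95 and 9.02 in 5B2. The score of 6C10 5534 was just above the highest 5B2 tumour, and the median difference was 0.09. The receptors overlapped: EGFR had 3727, 3759, 3342 and 4963 in 6C10 and 5653, 3034, 3115 and 3489 in 5B2, and ERBB2 differed by -0.09. SPRY2, an inhibitor of receptor tyrosine kinase signalling that is itself induced by it, was the only separate member, with 101, 157, 105 and 138 in 6C10 and 72.3, 98.6, 78.4 and 75.9 in 5B2, a log2 difference of 0.60 (limma adjusted p = 0.292). With a minimum mean of 50 or with no minimum the scores of this list overlapped.

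Integrins, the receptors that hold basal cells to the matrix, scored 10.09, 10.38, 10.39 and 10.45 in 6C10 and 10.15, 9.81, 9.87 and 10.26 in 5B2. Of 12 tested members 5 had an unadjusted p under 0.05, all higher, beside 5.87% higher and 7.37% lower over all genes, at a median difference of 0.28. ITGA6 differed by 0.23 and ITGB4 by -0.06. ITGA11, a collagen receptor of mesenchymal cells, was separate but near the detection limit, with 17.1, 22.5, 18.7 and 19.8 in 6C10 and 15.2, 1.84, 11 and 13.4 in 5B2.

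Genes of mesenchymal transition (24 tested) scored 8.66, 8.82, 8.88 and 8.87 in 6C10 and 8.34, 8.28, 8.38 and 8.98 in 5B2, at a median difference of 0.28. The pattern was that of the fibroblast and matrix list (18 tested), with 7.58, 7.77, 7.79 and 7.81 in 6C10 and 7.35, 7.33, 7.31 and 8.22 in 5B2. In both lists 6C10 lay between 5B2 5529 and the other 3 tumours of 5B2, which it exceeded without overlap. TNC, a matrix protein of wounds and tumours named after its values were seen, had 1147, 949, 1192 and 1281 in 6C10 and 886, 475, 456 and 1002 in 5B2, overlapping at 5529. COL1A1, a chain of collagen type I, had 3677 to 4501 in 6C10, against 9569.7 in 5529 and 3920.5 to 4205 in the rest of 5B2. TGFBI, a secreted matrix protein, had 3951 to 4853 in 6C10, against 8919 in 5529 and 3827 to 4521 in the rest of 5B2. The part of host or stromal cells in these lists was not tested.

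**Figure D4:**
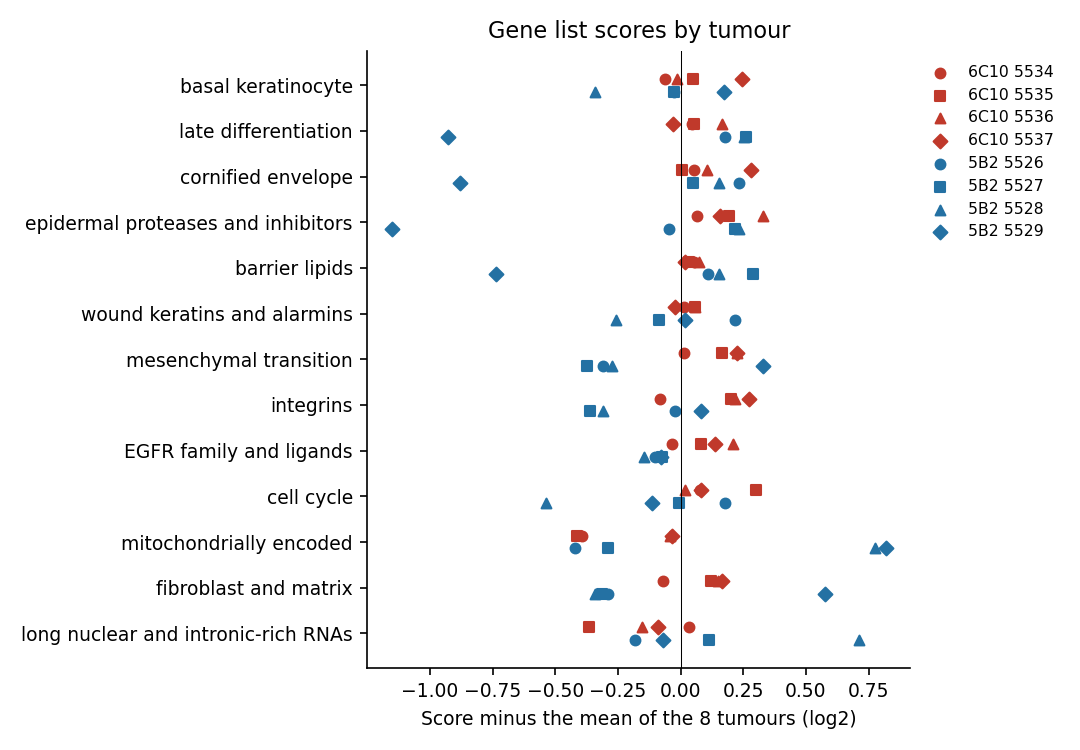
Score of 13 gene lists in each tumour (6C10 red, above; 5B2 blue, below), as the log2 deviation from the mean of the 8 tumours. In the differentiation, envelope, protease and lipid lists 1 tumour, 5B2 5529, lies far left (for late differentiation 10.68, against 11.58 to 11.87 in the other 7), and it lies right of the rest in the fibroblast and matrix list.

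Cell cycle genes (38 tested) had a median difference of 0.26 and 6 members higher at an unadjusted p under 0.05, none lower, beside 5.87% and 7.37% over all genes. They scored 7.92, 8.14, 7.86 and 7.92 in 6C10 and 8.02, 7.83, 7.30 and 7.73 in 5B2, so the lines overlapped and 5B2 5528 was lowest. CCNB2, a mitotic cyclin, was the separate member, with 168, 203, 161 and 166 in 6C10 and 144, 127, 106 and 138 in 5B2 (limma adjusted p = 0.293). CCND1 differed by -0.12 and MCM4, a replication helicase subunit, by 0.16. Tumour 5528 was also the one of 5B2 with the most MALAT1 and NEAT1, long RNAs kept in the nucleus. MALAT1 had 27474, 22020.3, 19567 and 38198 in 6C10 and 32735, 31597, 62281 and 38153 in 5B2, a log2 difference of -0.61 (limma adjusted p = 0.355). NEAT1 differed by -0.78 (limma adjusted p = 0.368), with 63582 in 5528.

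RNA of the mitochondrial genome split 5B2 into pairs. The 13 mitochondrially encoded genes scored 13.09, 13.07, 13.44 and 13.45 in 6C10 and 13.06, 13.19, 14.26 and 14.30 in 5B2. Tumours 5528 and 5529 were above every 6C10 tumour, while 5526 and 5527 lay within the range of 6C10 or just below it. MT-CO1 had 47332, 46997, 59345 and 59084 in 6C10 and 42560.4, 47225, 100644 and 100097 in 5B2, and MT-CO3 differed by -0.47 (limma adjusted p = 0.451). Mitochondrial RNA made up 1.65% to 2.11% of the values in 6C10, 1.46% and 1.74% in 5526 and 5527, and 3.50% and 3.38% in 5528 and 5529.

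Skeletal muscle genes gave the largest median of any list, 2.70, and no member passed. Their scores were 6.43, 8.85, 9.44 and 4.61 in 6C10 and 4.45, 2.69, 8.04 and 4.03 in 5B2, so that 5B2 5528 was above 6C10 5534 and 5537. ACTA1, skeletal actin, had 659, 3330.1, 5044 and 125 in 6C10 and 117, 13.1, 2259 and 114 in 5B2. NEB, nebulin, named after its values were seen, had 123, 416, 494 and 66.8 in 6C10 and 29.5, 9.19, 134 and 7.68 in 5B2. TPM2 had 793, 1458, 2140.4 and 551 in 6C10 and 528, 445, 705 and 643 in 5B2. All 3 overlapped between the lines and moved with the tumour, with adjusted p of 0.404, 0.292 and 0.331 by limma. The list marks a tissue that the carcinoma does not form, and the part of mouse muscle beside the tumours was not tested.

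Of the 23 chromosomes with at least 100 tested genes, 2 had a median log2 difference beyond 0.1 either way, chromosome 19 at -0.11 and chromosome 20 at -0.15, both lower in 6C10. Chromosome 19 had 90 separate genes lower (8.53%) and 5 higher (0.474%) of 1055, beside 3.75% and 3.24% over all genes, and its medians by tumour were -0.08 to -0.03 in 6C10 and 0.00 to 0.11 in 5B2. After centring on G and C content only chromosome 20 was beyond 0.1. On chromosome 20 (409 genes) the median deviation was -0.09 to -0.06 in the 6C10 tumours, and in 5B2 it was 0.46 in 5529 and -0.06 to -0.03 in the other 3. Without 5529 the median difference between the lines on this chromosome was -0.02. Of its genes 27 were separate and lower (6.6%) and 1 separate and higher (0.244%). To be separate and lower, a gene needs all 4 tumours of 5B2 above 6C10. Because 5529 was high on most genes of this chromosome, 1 of the 4 was above in advance, and few genes could be separate and higher. These counts are thus not independent of 5529. The number of chromosomes beyond 0.1 was 1 without 5529 and 4 without 5526.

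Against the mean of the other 5B2 tumours, 85.6% of the chromosome 20 genes were higher in 5529, by a median of 0.53 on the log2 scale. In 8 consecutive runs of 50 genes (the last few genes left over) over chr20:270863-63936031, the median was between 0.47 and 0.66, so the shift ran along the whole chromosome. The same runs compared between 6C10 and the other 3 tumours of 5B2 had medians of -0.10 to 0.07. GNAS, a G protein alpha subunit on 20q, had 8208, 9147, 9171 and 8827 in 6C10 and 9302, 8533, 9066 and 14791 in 5B2. CST3, cystatin C, had 5342, 4562, 6111 and 5236 in 6C10 and 7685, 5789, 6698 and 13042 in 5B2. Both were named after their values were seen, and in both 5529 was far above the other 7. Among the 15 tumours of the other lines 7 had a like shift, and over all 8 such tumours the median deviation was 0.31 to 0.46. The remaining 15 tumours lay at -0.22 to -0.03. The lowest was the shallow library WT 6C9 5533, whose median was below 0 on the other autosomes too. Next lowest was 6C10 5535 at -0.09. The number of copies of the chromosome was not measured.

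**Figure D5:**
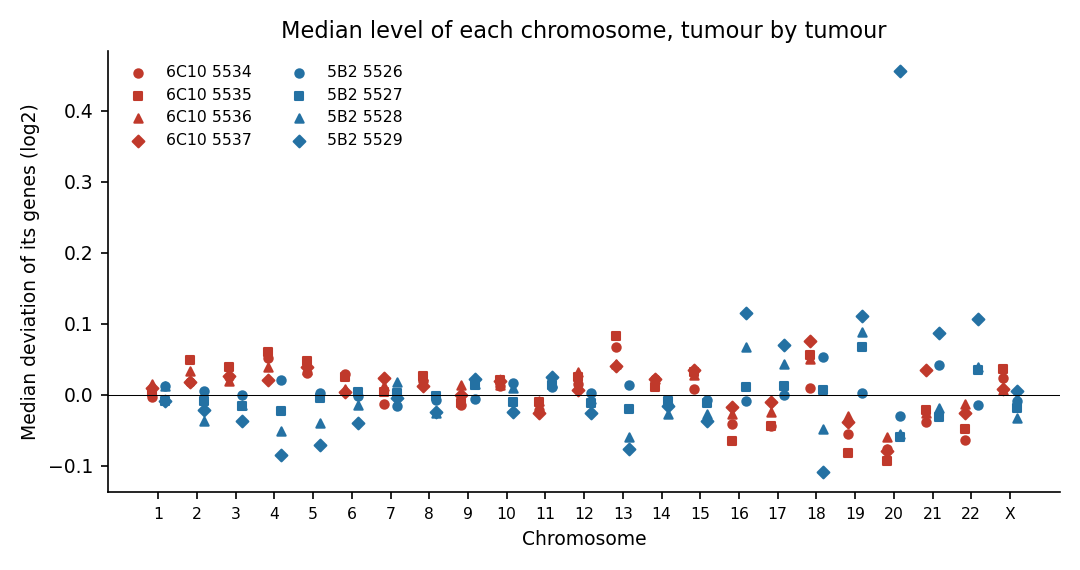
Median log2 deviation of the tested genes of each chromosome from the mean of the 8 tumours, 1 point per tumour (6C10 red, left; 5B2 blue, right). All points lie within about 0.12 of 0 except 5B2 5529 on chromosome 20 at 0.46; the 4 red points lie below the 4 blue ones on 4 chromosomes (11, 16, 17 and 19) and above them on 11.

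In these 8 libraries the tumours of 6C10 were more alike than those of 5B2. The median SD of a gene over tumours was 0.16 on the log2 scale in 6C10 and 0.24 in 5B2, and 5B2 was the wider for 70.5% of genes. Without 5529 the median SD of 5B2 was 0.21. The median correlation of a tumour with the others of its line, across genes, was 0.976 to 0.98 in 6C10 and 0.964 to 0.970 in 5B2. With the tumours of the other line it was 0.973, 0.973, 0.970 and 0.959 for 5B2 5526, 5527, 5528 and 5529, so that the first 3 correlated more with 6C10 than with their own line. In a principal component analysis of the 8 tumours the first component held 29.8% of the variance and the second 22.0%. On the first, 6C10 lay at 11.8, 34.9, 39.9 and -5.06 and 5B2 at -19.8, -19.8, 2.07 and -44.0, so 6C10 5537 and 5B2 5528 crossed over. The spread was wider in 5B2 for 32 of the 41 lists.

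Set beside the other lines, the 1109 genes with separate values did not sort the rest of the series by line. Among the 15 other tumours, the share of these genes on the 6C10 side of the midpoint was 24.1% in WT 6C9 5530 at the lowest and 70.3% in KO 1G10 5549 at the highest, and within KO 2B8 it ranged over 33.3% to 66.6%. In a limma fit of all 23 tumours, no gene (0%) of 16063 passed between 6C10 and 5B2, and 565 (3.52%) had an unadjusted p under 0.05. With the shallow 6C9 libraries 5532 and 5533 left out, none passed and 1737 had an unadjusted p under 0.05, and 4 passed when the pair was fitted alone.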

How the data were processed

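Poly(A) RNA of xenograft tumours was sequenced as directional libraries made from 500 ng of RNA, per the labels' protocols. The authors deposited 1 normalized value per gene and tumour, a signal that is a scaled read abundance, here called normalized reads. STAR, DESeq2 and the build hg38 are named in the submitters' processing notes, without versions or roles; how strand and mouse reads were counted is not stated there. Of the low values in the 8 tumours, 70.1% to 73.2% were whole multiples of 1 step within 0.02 reads, so whole reads were not recovered and no count test was used; total divided by step gave the estimated reads. Values do not allow comparison of levels between genes per length.

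Genes averaging 10 or more in the 8 tumours were analysed as log2(value + 1) with limma 3.58.1 in R 4.3.3 (trended prior, Benjamini-Hochberg at 0.05); differences are on that scale, which understates those of low genes. A line was called separate from the other where the 4 tumours of each did not overlap. G and C content is that of the longest GENCODE release 29 transcript, found for 99.8% of protein-coding genes. Where the deposited start equalled that of release 29, the stop was 1 base past its end for 78.9% of genes, and ends are given less 1 base. Libraries were checked for duplicates; none of the 8 agreed within sampling noise. The test was checked on simulated data. The members and the gene lists were chosen with earlier results of these data known. The rule for named genes takes CACFD1, called genes, and the 2 members of highest mean in each described list, 14 of the 46; a gene that the rule takes is not reported here, and other genes are marked as named or chosen after their values were seen, or are the list members whose lines did not overlap. Alternatives were the pseudocount, the filter, the scaling, library weights, the variance prior, covariates, the samples fitted and each tumour left out.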

Additional observations from a re-analysis of the deposited data

Results flagged for a closer look

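Each value below was farther from the rest of its line than Dixon's 95% critical value of 0.829 for 4 tumours allows. Of 290 groups examined, 21 were flagged; chance flags about 1 in 20. GNAS was named after its values were seen, and other named genes were also chosen by their values, so the number flagged is not a comparison with chance.

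Tumour 5529 of 5B2 gave 11 of them. It was highest for COL1A1 (9569.7 normalized reads, against 3920.5 to 4205 in the other 3), COL1A2 (3988, against 1626 to 1823), TGFBI (8919, against 3827 to 4521) and GNAS (14791, against 8533 to 9302). It was highest for the list scores of fibroblast and matrix genes (8.22) and mesenchymal transition (8.98), and for the median of chromosome 20 (0.46). It was lowest for the scores of late differentiation (10.68), cornified envelope (9.85), cholesterol synthesis (10.03, against 10.43 to 10.49) and clade B serpins (9.03, against 9.74 to 9.83).

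In the other 5B2 tumours, 5526 was highest for RNA5-8SN2 (612) and SLCO4A1 (211), 5528 was highest for ACTA1 (2259) and lowest for CAV1 (1451), and 5527 was lowest for the Notch score (8.56). In 6C10, 5537 was lowest for RNA5-8SN1 and RNA5-8SN2 (51.7 each) and highest for the score of imprinted genes (8.42, against 7.95 to 7.98), and 5535 was highest for CCNB2 (203) and lowest for the median of chromosome 14 (0.0111, against 0.0214 to 0.0217 in the others). What sets these tumours apart was not tested.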

How the results depend on the processing

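The 4 calls were kept under both other pseudocounts, a mean of at least 50, rescaling, quantile normalization and library weights. No gene passed with no filter, with G and C content centred, in the fit of all 23 tumours, in that of the 12 WT tumours, with a constant variance prior or at an adjusted p of 0.01, so the count was 0 there; leaving out each tumour gave 0 to 4. The pair fitted alone gave 4, where the 23-tumour fit gave 0. With the late differentiation score as a covariate 5 genes passed, KLK6 in addition, and with the fibroblast and matrix score 143 passed (74 higher, 69 lower). Lists with separate scores numbered 1 as reported, 0 with no filter, 0 at a mean of at least 50, and 1 to 9 with each tumour left out; 9 came without 5529, where the filter was applied to the 7 tumours left, and 8 with the members unchanged. Chromosomes beyond 0.1 numbered 1 with G and C content centred and from 1 (without 5529) to 4 (without 5526) with each tumour left out. The causes were not tested.

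Some log2 differences of uncalled genes changed sign or reached 0. Rescaling gave CASP14 0.0101, SULT2B1 0.0035 and ITGB4 0.0098. Quantile normalization gave KRT5 0.11, CASP14 0.15 and KRT6A 0. Centring G and C content gave CACFD1 0.14, SULT2B1 0.0783, ITGB4 0.15 and ERBB2 0.0031. Library weights gave KRT10 -0.16, KRT1 -0.0711, CDSN -0.0466, ITGB4 0.0196 and COL1A2 0.0625. The differentiation covariate gave KRT10 -0.0785, CDSN -0.0592 and COL1A2 0.0208, and the fibroblast covariate gave CASP14 0.0591 and SULT2B1 0.018.

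Leaving out each tumour in turn gave ranges of -0.21 to 0.0369 for CASP14, -0.18 to 0.17 for CDSN, -0.23 to 0.20 for COL1A2, -0.0358 to 0.28 for EGFR, -0.11 to 0.73 for FLG, -0.16 to 0.0791 for ITGB4, -0.21 to 0.35 for KRT1, -0.26 to 0.24 for KRT10, -0.27 to 0.0014 for KRT5, -0.10 to 0.58 for RN7SL1, -0.12 to 0.72 for RN7SL2, -0.0044 to 0.30 for SPINK5 and -0.38 to 0.0281 for TGFBI. No paired analysis was possible because the lines share no replicate numbers. The median standard error was 0.15 on the log2 scale, and differences smaller than 2-fold were not simulated.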
